A study of Mus musculus with 14 samples.

Results

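The zona pellucida genes Zp1, Zp2 and Zp3 and the oocyte growth factor genes Gdf9 and Bmp15 were followed through 14 RNA-seq libraries of mouse 2-cell embryos. These 5 genes were found by an exact match of the gene name, 1 row for each, among the 56923 genes of the count table, and all 5 passed the filter on low counts that left 25041 genes over the 14 libraries. They had been put together as purely maternal transcripts. Counts alone cannot tell maternal from embryonic RNA, so this label was not tested, and the levels are described. Gdf9 and Bmp15 were called lower at the late than at the early stage in medium with lactate. They were not called without lactate or when scaled by library totals. The change was not shown to differ between the media for either gene, and both were called over both media together. The calls with lactate also depended on single libraries. No fall of Zp3 was found, and it was highest in late WT embryos.

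The zona pellucida is the glycoprotein coat of the egg, and in the mouse it is built from the proteins of Zp1, Zp2 and Zp3. ZP2 and ZP3 form the filaments, ZP1 crosslinks them, and ZP2 is cut after fertilization, which blocks further sperm binding. Gdf9 and Bmp15 encode TGF-beta family ligands secreted by the growing oocyte, which act on the surrounding granulosa and cumulus cells and can pair with each other. All 5 mRNAs are made during oocyte growth, and what is left of them in the egg reaches the embryo with the cytoplasm. There the bulk of maternal mRNA is cleared around the 2-cell stage while the embryonic genome is switched on.

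Embryos of ICR mice were collected as early 2-cell embryos at 30 h or late 2-cell embryos at 54 h after hCG, the hormone that triggers ovulation, and 5 embryos went into each library. In G&N embryos the medium held 10 mM lactate together with 5 µM Gne140, an inhibitor of lactate dehydrogenase, and 50 µM NMN, an NAD+ precursor, from 24 h after hCG. In G&N-L embryos lactate was left out. Both media were sampled at both stages. At the late stage there were also G&N-L + Lac-CoA embryos, injected with 1 mM lactyl-coenzyme A and cultured without lactate. The last groups were H3K18R embryos, injected at 14 h after hCG with 200 ng/µL of histone H3 mRNAs carrying a lysine to arginine change, and WT embryos, injected with wild-type H3 mRNAs. No lactate, Gne140 or NMN is given in the labels of H3K18R and WT embryos. Each of these 7 conditions had 2 libraries.

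The groups were read from the sample titles, and the treatment labels go against some of them. The early libraries titled G&N-L were labelled with Gne140 and NMN and no word on lactate, the early libraries titled G&N with Gne140 alone, and the Lac-CoA libraries with CoA. The columns named K18A were taken as those titled H3K18R. The labels state 3 replicates, and the table holds 2 for each condition. Nothing in the labels says that replicates came from separate cultures, so p-values measure the spread between these libraries, which may be technical. In pooled embryos, fewer embryos or cells and less RNA per cell cannot be told apart.

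Library totals ran from 20350427 to 61275465 counts. The mitochondrial share was 2.17% to 3.85% in the 4 early libraries, 5.65% to 6.84% in the 6 late libraries with Gne140, and 10.6% to 12.2% in the 4 H3K18R and WT libraries. The summed level of 7 genome activation markers separated the stages, with 69.3 to 166 CPM (a depth-scaled count, here on TMM-normalized library sizes) in early and 1705 to 3349 CPM in late libraries. Markers of cumulus and granulosa cells, the neighbours of the oocyte, summed to 26.2 to 42.8 CPM over 15 genes in early and 8.76 to 37.7 CPM in late libraries. Of these genes 6 were at 0 in all early and 2 in all late libraries. Amh and Inhba were at 0 in all libraries, while the aromatase gene Cyp19a1 reached 22.9 CPM, Tnfaip6 19.2 CPM, Kitl 15.4 CPM and Fshr 7.77 CPM. Sperm markers summed to 15.5 to 23.6 CPM early and 2.75 to 11.6 CPM late, most of it from Prm2 in the early libraries. Oviduct markers summed to 0 to 3.42 CPM and 0.411 to 14.4 CPM. In late libraries the keratin genes Krt18 and Krt8 reached 10.5 and 3.26 CPM. Ovgp1 reached 4.56, Pax8 0.313 and Foxj1 0.0438 CPM there. The part of these RNAs in the results was not tested.

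The genes lie apart from each other in the genome. In the GENCODE M39 annotation of mm39, Zp1 is on chromosome 19 (10891651 to 10897996, minus strand), Zp2 on chromosome 7 (119725995 to 119744514, minus strand) and Zp3 on chromosome 5 (136008953 to 136017478, plus strand). Gdf9 is on chromosome 11 (53321850 to 53328731, plus strand) and Bmp15 on chromosome X (6226161 to 6232775, minus strand). The exons of Gdf9 share 1 base with Uqcrq on the opposite strand, and the other 4 members share none with another gene.

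The zona mRNAs end almost as soon as the reading frame does. The 3′ UTR was 34 bases long in Zp1, 49 in Zp2 and 13 in Zp3, against a median of 1014 bases over 21507 canonical coding transcripts, of which 5.4% had fewer than 50 bases. It was 360 bases in Gdf9 and 1523 in Bmp15. The last 30 bases of each transcript are shown because 3′ ends set how maternal mRNAs are stored and adenylated, and because the members differ so much here. Capitals mark the polyadenylation hexamer AATAAA, which 46.4% of the transcripts held in the same window.
Zp1: actcAATAAAccattgtttgaaaactcctg
Zp2: gactgcagttaaactcttgtcttacatgtt
Zp3: tatcccttccgcAATAAAagaagaaactca
Gdf9: acggaagAATAAActgttgatggcataaat
Bmp15: agAATAAAttttcatttatgtgtgctttgc
The hexamer was in 4 of the 5 windows and not in that of Zp2. In Zp3 it overlapped the stop codon.

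Promoter sequence was available for Zp3, which was highest in WT embryos, and for Bmp15, which was lowest there, as were Zp2 and Gdf9. The 250 bases before the start sites of Zp3 and Bmp15 are shown. They are RefSeq sequences of GRCm38.p6, on chr5:135979855-135980104 (plus strand) and chrX:6320725-6320974 (minus strand). Capitals mark E-boxes (CANNTG, which reads the same on both strands as a pattern), the motif bound by FIGLA and other helix-loop-helix factors, and TATAA on the strand of the gene.
Zp3: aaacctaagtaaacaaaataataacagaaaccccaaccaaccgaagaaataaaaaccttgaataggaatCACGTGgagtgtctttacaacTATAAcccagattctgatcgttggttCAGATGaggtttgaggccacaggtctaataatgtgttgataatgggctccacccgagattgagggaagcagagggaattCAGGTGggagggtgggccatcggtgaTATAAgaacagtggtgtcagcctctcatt
Bmp15: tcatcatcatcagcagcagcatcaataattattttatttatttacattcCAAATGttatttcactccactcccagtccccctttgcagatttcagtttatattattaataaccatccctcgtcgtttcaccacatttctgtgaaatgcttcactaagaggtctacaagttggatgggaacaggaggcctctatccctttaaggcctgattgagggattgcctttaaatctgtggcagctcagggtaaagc
The window of Zp3 held E-boxes 181, 134 and 55 bases before the start site and TATAA 160 and 29 bases before it. That of Bmp15 held 1 E-box, 201 bases before the start, no TATAA on its own strand, and 1 on the opposite strand 154 bases before the start. Of 32851 promoter windows, 66.2% held CANNTG, 6.02% held CACGTG, as Zp3 does, and 16% held TATAA on the strand of the gene. A match is a description of these letters and shows no binding. Zp1, Zp2 and Gdf9 had no entry.

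Bmp15 was the most abundant member by far. Per kilobase of exon in early G&N embryos, its level was 1072 ± 250 CPM per kb (SD, n = 2), followed by Gdf9 at 235 ± 105, Zp2 at 39.6 ± 6.76, Zp3 at 36.4 ± 18.3 and Zp1 at 10.9 ± 8.58 CPM per kb. In late WT embryos the order had changed. Bmp15 was at 124 ± 31.7 and Zp3 at 103 ± 22.3 CPM per kb, then Gdf9 at 34.98 ± 1.97, Zp2 at 10.5 ± 6.57 and Zp1 at 6.86 ± 1.31 CPM per kb (SD, n = 2).

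**Figure D1:**
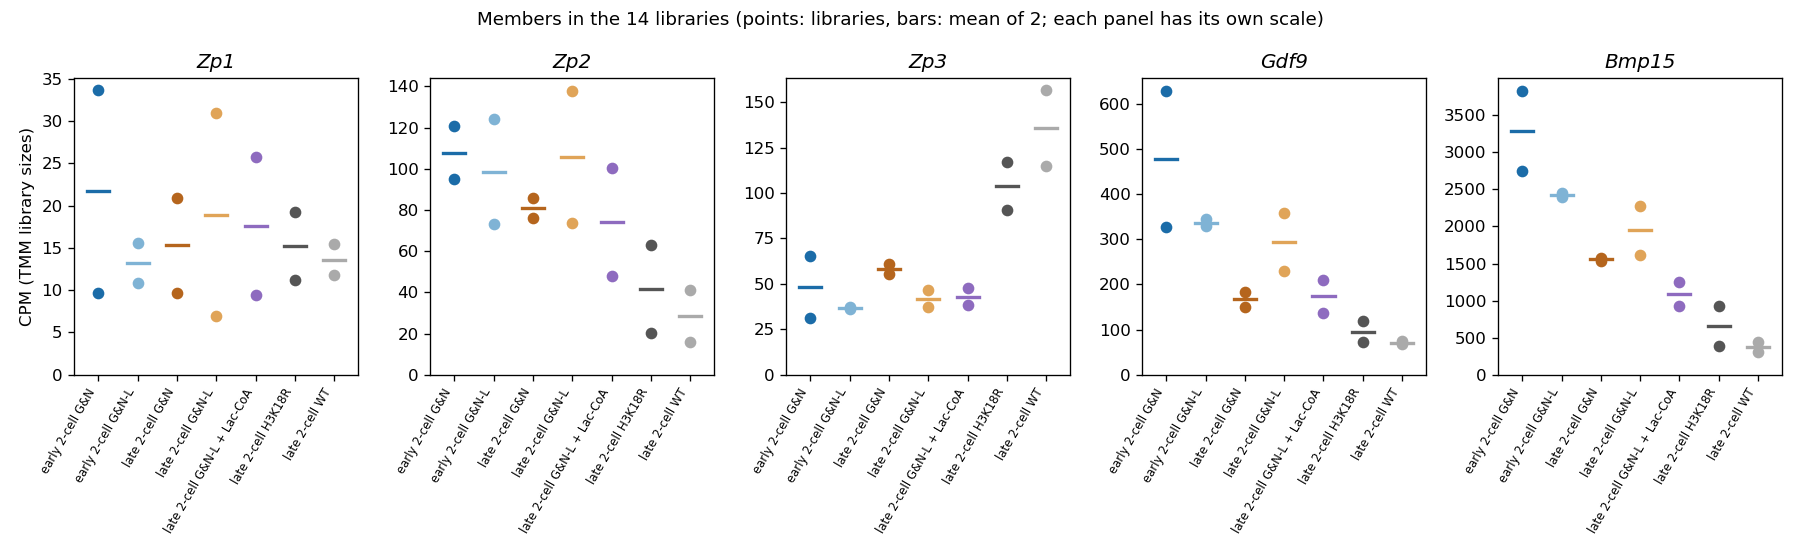
CPM on TMM library sizes (y axis, from 0, a scale for each gene) of the 5 members in the 7 conditions (x axis), with a point for each library and a bar at the mean of 2. Bmp15 and Gdf9 were lowest in WT embryos (379 and 71.0 CPM on average), where Zp3 was highest (136 CPM).

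Zp1, the crosslinking protein of the coat, had the lowest level per kilobase in each condition and, in late G&N-L embryos, the largest gap between replicates of any member. It was at 33.7 and 9.67 CPM in early G&N, 15.6 and 10.9 in early G&N-L, 9.66 and 20.9 in late G&N, and 6.92 and 31.0 in late G&N-L embryos. In the other late embryos it was at 25.8 and 9.48 CPM with Lac-CoA, 11.2 and 19.3 in H3K18R, and 11.7 and 15.4 in WT. The libraries of late G&N-L alone differed 4.47-fold, and no neighbouring pair of conditions in the order of their means was separated.

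Zp2, whose product is the sperm-binding protein cut after fertilization, was at 121 and 94.9 CPM in early G&N and at 73.2 and 124 CPM in early G&N-L embryos. At the late stage it was at 76.1 and 85.6 CPM in G&N, 73.7 and 138 in G&N-L, and 100.3 and 48.2 with Lac-CoA. H3K18R embryos had 20.1 and 62.8 CPM and WT embryos 41.4 and 16.1 CPM. Both WT libraries lay below every early library, but each condition overlapped its neighbours in the order of the means. WT lay below early G&N without overlap in 37.7% of all genes tested, and the share below every early library was not counted.

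Zp3, the partner of ZP2 in the filaments, was at 65.2 and 31.0 CPM in early G&N and 37.4 and 36.4 CPM in early G&N-L embryos. Late embryos had 55.4 and 61.2 CPM in G&N, 37.1 and 46.5 in G&N-L, and 47.5 and 38.5 with Lac-CoA. The highest values were 117 and 90.4 CPM in H3K18R and 115 and 157 CPM in WT embryos. All 4 of these lay above the other 10 libraries. The step from late G&N to H3K18R was the only pair of neighbours in the order of the means that did not overlap. The share of all genes split in this way was not counted. WT lay above early G&N without overlap in 38.9% of all genes tested, and above late G&N in 28.2%.

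Gdf9 was at 629 and 327 CPM in early G&N and 330 and 344 CPM in early G&N-L embryos. It was at 184 and 149 CPM in late G&N, 231 and 358 in late G&N-L, and 209 and 138 with Lac-CoA. H3K18R embryos had 72.0 and 119 CPM, and WT embryos 73.9 and 68.2 CPM. In order of the means, WT and H3K18R overlapped, late G&N and Lac-CoA overlapped, and late G&N-L overlapped both early conditions. Steps without overlap were from H3K18R to late G&N and from Lac-CoA to late G&N-L. Lac-CoA lay below late G&N-L without overlap in 22.0% of all genes tested, and the share for the other step was not counted.

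Bmp15 was at 3821 and 2741 CPM in early G&N and 2444 and 2401 CPM in early G&N-L embryos. Late embryos had 1540 and 1575 CPM in G&N, 1617 and 2276 in G&N-L, and 1250 and 934 with Lac-CoA. Levels were 385 and 925 CPM in H3K18R and 448 and 311 CPM in WT embryos. Of the members it had the most steps without overlap. WT and H3K18R overlapped, and the other 5 steps, up through Lac-CoA, late G&N, late G&N-L, early G&N-L and early G&N, did not. From Lac-CoA to late G&N, 22.2% of all genes tested rose without overlap, and from late G&N to late G&N-L 18.6%. From late to early G&N-L 26.1% did, and from early G&N-L to early G&N 21.3%. For the step from H3K18R to Lac-CoA, with its closest libraries at 925 and 934 CPM, the share was not counted. The share of genes with as many steps was not counted, and the conditions were sorted by the same means.

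Replicates often differed in the same direction for several members. In early G&N embryos all 5 were higher in replicate 1, in late G&N-L all 5 in replicate 2, and in Lac-CoA embryos all 5 in replicate 1. In H3K18R embryos 4 of the 5 were higher in replicate 2, and Zp3 was higher in replicate 1. Each library was scaled by 1 normalization factor for all genes. Early G&N replicate 1 had counts for 22647 genes, the most of the 14 libraries, and replicate 2 for 18773. The part of this in the results was not tested.

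The first comparison asked how the members changed between 30 and 54 h after hCG in medium with lactate. Gdf9 fell by 1.56 on the log2 scale (SE 0.33, adjusted p = 0.0403, edgeR's quasi-likelihood test with Benjamini-Hochberg adjustment over all genes) and Bmp15 fell by 1.13 (SE 0.24, adjusted p = 0.0379). These are a 2.94-fold lower Gdf9 and a 2.19-fold lower Bmp15. These were 2 of the 5 members, where 13.7% of the 19443 genes tested were called. The zona genes did not pass: Zp1 differed by -0.52 (95% interval -2.26 to 1.22), Zp2 by -0.48 (-1.12 to 0.16) and Zp3 by 0.24 (-0.71 to 1.19). The late libraries of Gdf9, Bmp15 and Zp2 lay below both early ones, as did those of 28.9% of all genes tested.

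Both calls depended on single libraries. Without early G&N replicate 1 the adjusted p was 0.107 for Gdf9 and 0.0551 for Bmp15, without late G&N replicate 1 it was 0.135 and 0.176, and without late G&N replicate 2 it was 0.173 and 0.169. They also depended on the scaling: with library totals in place of TMM the median of all genes moved from 0.08 to 0.46, and Gdf9 was at -1.19 (adjusted p = 0.0896) and Bmp15 at -0.76 (adjusted p = 0.0823). In 1 fit of all 14 libraries Bmp15 was not called (adjusted p = 0.0695). Relative to the median with library totals, Gdf9 was at -1.65 and Bmp15 at -1.22. Of the calls over all genes, 40.1% were lower in late embryos with TMM and 23.6% with library totals.

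In medium without lactate none of the 5 members was called between the stages, where 11.8% of 18604 genes were. DESeq2 called none of the 5 either, and none had an unadjusted p under 0.05. Bmp15 differed by -0.38 (95% interval -0.85 to 0.10), with both late libraries below both early ones, and Gdf9 by -0.26 (-0.88 to 0.36). Zp1 differed by 0.46 (-1.42 to 2.33), Zp2 by 0.02 (-1.04 to 1.08) and Zp3 by 0.12 (-0.50 to 0.74). Groups like those of Bmp15 were seen in 26.1% of all genes. With library totals Gdf9 was at 0.10, and the median of all genes moved from 0.15 to 0.51, with 49.6% of all calls lower in late embryos by TMM and 27.4% by library totals.

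Whether the media differed in this stage effect was asked with an interaction term over their 8 libraries. The change of Gdf9 from early to late was 1.25 higher on the log2 scale without lactate than with it (SE 0.43, unadjusted p = 0.0193) and that of Bmp15 was 0.71 higher (SE 0.29, unadjusted p = 0.0392). Neither passed over all genes, with an adjusted p of 0.650 for both in edgeR. None of the 5 members and 0% of 22287 genes were called, 1683 genes, these 2 members among them, had an unadjusted p under 0.05, and DESeq2 called 231 genes and none of the members. The stage effect is therefore not shown to depend on lactate for any member.

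With the medium as an additive term, the stage effect over both media was -0.80 for Bmp15 (SE 0.19, adjusted p = 0.0130) and -0.95 for Gdf9 (SE 0.30, adjusted p = 0.0472). These 2 of 5 were called where 24.5% of 22287 genes were. Zp1 was at -0.07 (95% interval -1.31 to 1.17), Zp2 at -0.27 (-0.87 to 0.33) and Zp3 at 0.14 (-0.37 to 0.65), and none of these was called. With DESeq2's size factors Zp1 was at 0.10, and with library totals Zp1 was at 0.30 and Zp2 at 0.13. No direction can be given for these genes. Gdf9, Bmp15 and Zp3 kept their direction under each scaling. The value of Zp3 was smaller than its SE of 0.23 and reached -0.0023 with a library left out. No direction can be given for Zp3 either. With library totals, Bmp15 was at -0.39 (adjusted p = 0.178) and Gdf9 at -0.55 (adjusted p = 0.254), and the median of all genes moved from 0.12 to 0.53. The share of calls that were lower went from 44.6% to 26.0%.

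The Gdf9 call over both media was lost without early G&N replicate 1 (adjusted p = 0.0996), late G&N-L replicate 1 (0.0603), late G&N replicate 1 (0.0929) or late G&N replicate 2 (0.0905). It was also lost with DESeq2's size factors (0.0799). Bmp15 was called with each single library left out, and was not called in 1 fit of all 14 libraries (adjusted p = 0.0672). The 4 libraries of late embryos in these media held 149 to 358 CPM of Gdf9 and 1540 to 2276 CPM of Bmp15, against 327 to 629 and 2401 to 3821 CPM in the 4 early libraries.

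**Figure D2:**
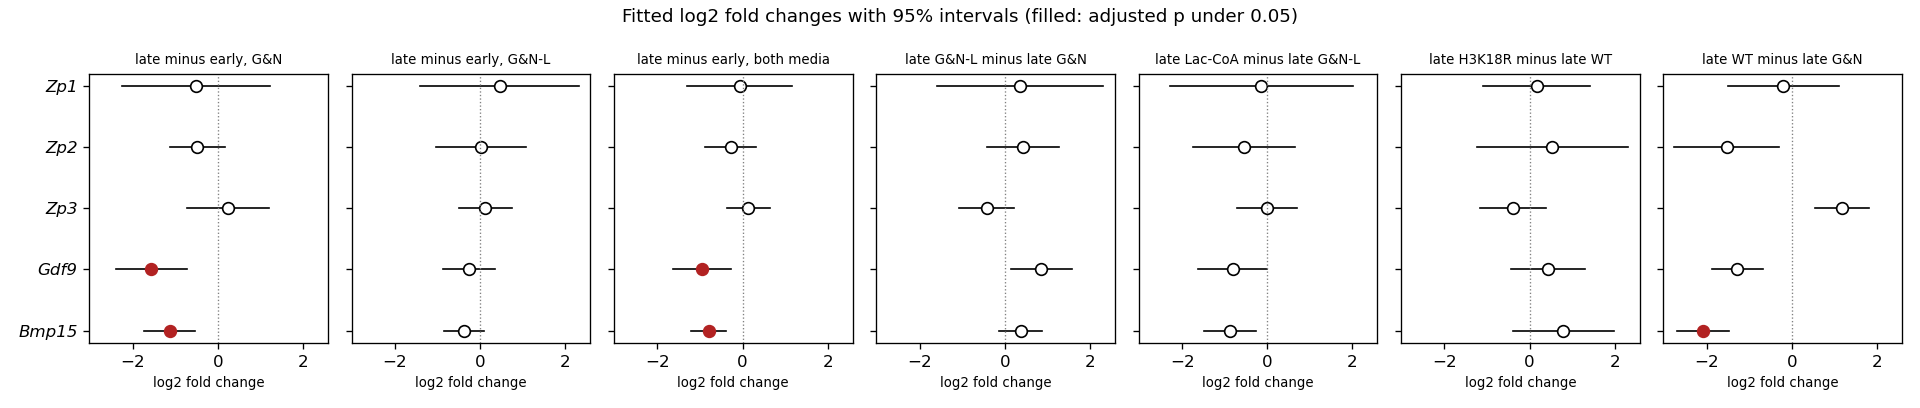
Fitted log2 fold changes (x axis) of the 5 members (rows) in 7 comparisons (panels), with 95% intervals from edgeR's quasi-likelihood fit and filled points where the adjusted p was under 0.05. Gdf9 and Bmp15 were called in the comparison with lactate (-1.56 and -1.13) and over both media, and Bmp15 between WT and late G&N embryos (-2.08).

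Counts of each member per 100 counts of Bmp15 in the same library need no scaling between libraries. Zp3 stood at 1.13 to 1.71 per 100 in the 4 early libraries and at 2.04 to 3.88 in the 4 late G&N and G&N-L libraries, and the groups did not overlap. This was a 1.96-fold difference (exact two-sided permutation test, p = 0.0286, the smallest that 4 against 4 libraries can give), with an adjusted p of 0.114 over the 4 ratios. For Gdf9 the ratio was 11.9 to 16.4 early and 9.48 to 15.7 late (p = 0.486, exact permutation test). For Zp2 it was 2.99 to 5.17 early and 4.56 to 6.06 late (p = 0.0857, exact), and for Zp1 0.353 to 0.882 and 0.428 to 1.36 (p = 0.286, exact). The ratios were chosen after the values were seen. A ratio shows unequal change between a pair of genes, and does not say which of them changed.

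**Figure D3:**
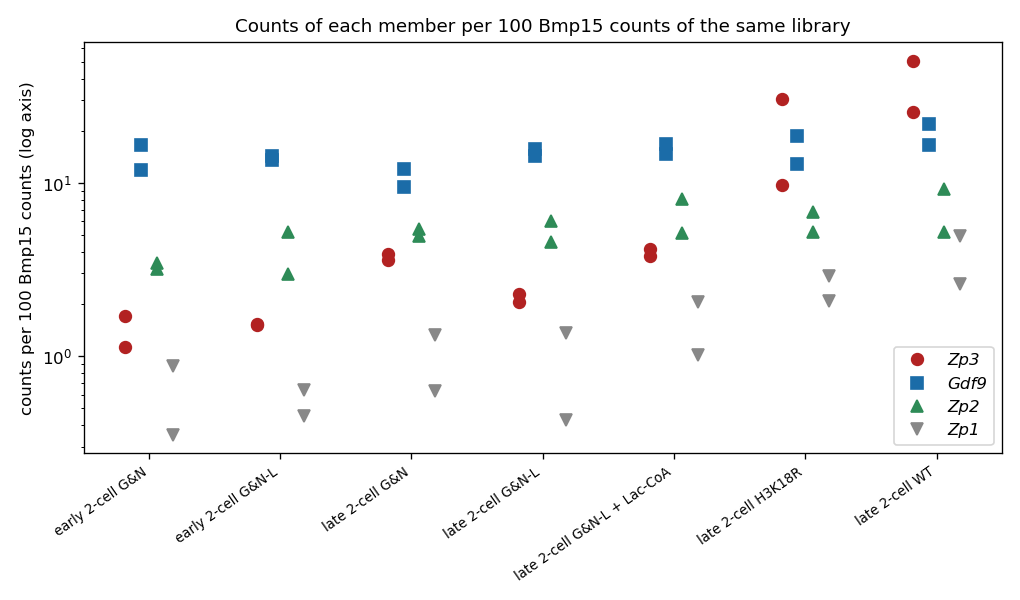
Counts per 100 Bmp15 counts of the same library (y axis, log) for Zp3, Gdf9, Zp2 and Zp1 in the 7 conditions (x axis), with a point for each library. Zp3 went from 1.13 to 1.71 in early libraries up to 25.7 and 50.4 in the WT libraries.

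Lactate removal at the late stage called none of the 5 members, nor any other gene (0% of 19481), with edgeR. Of the members, Gdf9 alone had an unadjusted p under 0.05, as did 2332 genes in all, and DESeq2 called 916 genes. Gdf9 was 0.86 higher without lactate on the log2 scale (95% interval 0.15 to 1.57, adjusted p = 0.340 with edgeR and 0.0367 with DESeq2), with both G&N-L libraries above both G&N libraries. Its adjusted p ranged from 0.0367 to 0.764 over the alternatives. Bmp15 differed by 0.37 (-0.14 to 0.87), Zp1 by 0.36 (-1.59 to 2.31), Zp2 by 0.43 (-0.41 to 1.27) and Zp3 by -0.43 (-1.09 to 0.22). The libraries of Bmp15 were higher without overlap, like those of 18.6% of all genes, and those of Zp3 were lower without overlap, like those of 24.9%.

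Lactate removal at the early stage called none of the members and 0% of 17343 genes with edgeR. Over all genes 784 had an unadjusted p under 0.05 and DESeq2 called 37, and no member was among either. The differences were -0.30 for Bmp15 (95% interval -0.74 to 0.14), -0.35 for Gdf9 (-1.06 to 0.36), -0.23 for Zp3 (-1.10 to 0.64), 0.02 for Zp2 (-0.82 to 0.86) and -0.55 for Zp1 (-1.98 to 0.88). The Bmp15 libraries did not overlap and were lower without lactate, like those of 21.3% of all genes.

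Lac-CoA embryos were compared with G&N-L embryos, which differ by the injection, and none of the members or of all genes (0% of 19610) was called with edgeR. Bmp15 differed by -0.88 on the log2 scale (95% interval -1.495 to -0.26, adjusted p = 0.304), and Gdf9 was at -0.81 (-1.62 to 0.00364, adjusted p = 0.377). Both Lac-CoA libraries lay below both G&N-L libraries for these genes, as for 22.0% of all genes. DESeq2 called Bmp15 (adjusted p = 0.0115) among 1183 genes, 2609 genes had an unadjusted p under 0.05 in edgeR, and the adjusted p of Bmp15 ranged from 0.0115 to 0.679 over the alternatives. Zp2 differed by -0.55 (-1.75 to 0.65), Zp1 by -0.14 (-2.29 to 2.02) and Zp3 by -0.01 (-0.72 to 0.71).

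Against late G&N embryos, which had lactate and no injection, Lac-CoA embryos also gave no call among the members or among all genes (0% of 19613) with edgeR. An unadjusted p under 0.05 was found for 1670 genes and for none of the members, and DESeq2 called 471 genes and no member. Gdf9 differed by 0.14 (95% interval -0.60 to 0.89), Bmp15 by -0.42 (-0.96 to 0.12), Zp3 by -0.35 (-1.04 to 0.34), Zp2 by -0.03 (-1.01 to 0.95) and Zp1 by 0.31 (-1.30 to 1.92). The libraries of Zp3 and Bmp15 were lower with Lac-CoA without overlap, like those of 22.2% of all genes. The comparisons of G&N-L with G&N and with Lac-CoA share the G&N-L libraries, so their values are given side by side.

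Between H3K18R and WT embryos none of the 5 members was called, where 0.00565% of 17704 genes was, that is 1 gene, by edgeR. DESeq2 called 118 genes and none of the members, and 1141 genes and none of the members had an unadjusted p under 0.05. Bmp15 differed by 0.79 (95% interval -0.39 to 1.97), Zp2 by 0.53 (-1.24 to 2.30), Gdf9 by 0.43 (-0.44 to 1.29), Zp1 by 0.17 (-1.09 to 1.42) and Zp3 by -0.39 (-1.16 to 0.39). All 5 overlapped between the groups. Without H3K18R replicate 2, Bmp15 differed by 0.03 and Gdf9 by 0.02.

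WT embryos were set against late G&N embryos to place the injected groups beside the cultured ones. Bmp15 was lower in WT, at a log2 fold change of -2.08 (95% interval -2.69 to -1.47, adjusted p = 0.0413), a 4.23-fold difference, and it was the 1 member called where 4.62% of 18986 genes were. Gdf9 was at -1.28 (-1.89 to -0.68, adjusted p = 0.0517), Zp2 at -1.54 (-2.76 to -0.31, adjusted p = 0.114), Zp3 at 1.18 (0.54 to 1.82, adjusted p = 0.0633) and Zp1 at -0.20 (-1.498 to 1.10). In 4 of the 5 members the groups did not overlap: Bmp15, Gdf9 and Zp2 were lower in WT, like 32.4% of all genes, and Zp3 was higher, like 28.2%. DESeq2 called all of these 4, with adjusted p values of 1.47e-04 for Gdf9, 0.0146 for Zp2 and 4.72e-04 for Zp3.

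The Bmp15 call was lost without late G&N replicate 1 (adjusted p = 0.0949), WT replicate 1 (0.0550) or WT replicate 2 (0.0815). The groups differ in the injection, in Gne140 and NMN as labelled, and in the mitochondrial share, and these cannot be told apart.

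The same WT libraries were also compared with early G&N embryos, a comparison added after the levels had been seen, in which stage and treatment both differ. Bmp15 fell by 3.17 (adjusted p = 0.00454), Gdf9 fell by 2.79 (adjusted p = 0.00693) and Zp2 fell by 1.98 (adjusted p = 0.0377), whereas Zp3 rose by 1.46 (adjusted p = 0.0405), all by edgeR. These 4 of the 5 were called where 39.7% of 19072 genes were, 3 lower and 1 higher. Zp1 was at -0.69 (95% interval -2.38 to 1.01). WT embryos held 11.6% of the mean early Bmp15 level, 14.9% of that of Gdf9, 26.6% of that of Zp2, 62.6% of that of Zp1 and 283% of that of Zp3.

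The Zp2 and Zp3 calls depended on single libraries, and that of Zp2 also on the scaling. For Zp2 the adjusted p was 0.137 and 0.102 without early G&N replicate 1 or 2 and 0.0781 without WT replicate 2, and with library totals it was 0.0729. For Zp3 it was 0.103 without early G&N replicate 2, and 0.0896 and 0.174 without WT replicate 1 or 2. The Gdf9 and Bmp15 calls were kept without any single library.

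A last test over the 5 late conditions asked whether a member differed between any of them. Zp3 (adjusted p = 0.0155), Gdf9 (0.0204) and Bmp15 (0.0208) did by edgeR's quasi-likelihood F test, 3 of 5 members where 7.81% of 23611 genes were called. This test does not say which conditions differ. In the pairs above, edgeR called no member among late G&N, G&N-L and Lac-CoA embryos, and none between H3K18R and WT embryos. The fitted conditions spanned 5.44-fold for Bmp15, 4.39-fold for Gdf9 and 3.06-fold for Zp3. Zp2 (adjusted p = 0.266, 3.91-fold) and Zp1 (0.981, 1.47-fold) were not called. Zp2 was called without Lac-CoA replicate 1 (adjusted p = 0.0493), Lac-CoA replicate 2 (0.0395), H3K18R replicate 2 (0.0122) or WT replicate 1 (0.0425), and also without a filter on low counts (7.59e-05). The other 3 calls were kept without any single library.

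Genes whose products act at the egg surface or on the coat were compared over the same stages. In the comparison over both media, 4 of the 8 genes for egg surface and zona modification were called lower in late embryos and none was called higher, at a median of -1.68 beside 0.12 over all genes, where 24.5% were called in either direction. They were Oosp3 (-1.39, adjusted p = 2.29e-04) and Oosp2 (-1.97, adjusted p = 0.00102), oocyte-secreted proteins, Fetub (-2.47, adjusted p = 0.00712), which inhibits the protease that cuts ZP2, and Izumo1r (-2.12, adjusted p = 0.00846), the egg receptor for the sperm protein IZUMO1. Astl, which encodes that protease, was at -1.97 with an adjusted p of 0.0509. All list values here use TMM scaling.

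Of 7 oocyte transcription factors, 1 was called lower and 1 higher, where 24.5% of all genes were called. Nobox, a homeobox factor that acts on oocyte genes, was at -1.71 (adjusted p = 0.00350), and Taf4b, a subunit of the general factor TFIID, at 2.03 (adjusted p = 6.53e-04). Figla, a factor with a role at zona gene promoters, was at 0.981 to 2.22 CPM in early and 0 to 10.3 CPM in late libraries. It was singled out for that role, with its values already seen.

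Receptor genes for the growth factors were found in the embryos. Bmpr2, the type II receptor used by both ligands, was at 149 to 218 CPM in early and 134 to 245 CPM in late libraries, and is named for that role, its values having been seen. Of the 10 receptors, 9 were tested and 1 was called, the type I receptor Bmpr1b at -1.65 (adjusted p = 9.98e-04), and the median was 0.41. Of 8 Smad genes, which carry the signal to the nucleus, 1 was called, Smad2 at -0.99 (adjusted p = 0.00556), and the median was 0.36. The share called over all genes was 24.5%.

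Other ligands of the family were tested for 8 of 15 genes. Tgfb3 was lower (-1.04, adjusted p = 0.0137) and Bmp6 higher (0.95, adjusted p = 0.0468) in late embryos, at a median of 0.58. Calls were made for 24.5% of all genes. Of the 8 secreted inhibitors 1 was tested, Fstl3, at -0.95 (SE 1.17), and it was not called. The summed level of the inhibitors was 0 to 6.31 CPM in the late libraries.

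Of 16 other maternal oocyte genes, 12 were called lower and none higher in late embryos, where 24.5% of all genes were called. The median was -1.46 beside -0.27 for the members. The smallest p values were those of Ooep (-3.52, adjusted p = 1.07e-05) and Nlrp5 (-2.61, adjusted p = 8.75e-05), parts of the subcortical maternal complex, Oas1d (-3.70, adjusted p = 2.57e-05) and the oocyte linker histone H1f8 (-2.58, adjusted p = 4.46e-05). Their summed level was 38728 to 48018 CPM in early and 15333 to 25055 CPM in late libraries. Whether this list and the members differ was not tested.

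Genes of maternal mRNA decay went both ways, with 4 of 13 called lower and 2 higher, where 24.5% of all genes were called. Pabpn1l (-4.59, adjusted p = 9.78e-05), Dcp1a (-0.98, adjusted p = 0.00410) and Btg4 (-0.82, adjusted p = 0.00805), an adaptor of the deadenylase complex, were lower, and the m6A reader Ythdf2 (1.19, adjusted p = 0.0221) was higher. Of the 7 genome activation markers 6 were called higher in late embryos, with Zfp352 at 5.75 (adjusted p = 1.23e-04), Zscan4f at 5.64 (adjusted p = 5.74e-04), Dppa4 at 3.35 (adjusted p = 6.58e-04) and Zscan4d at 5.33 (adjusted p = 0.00315). Zscan4 genes are near-identical copies, and their counts are uncertain for that reason.

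Among markers of other cells, 2 of the 8 cumulus and granulosa genes tested were called lower in late embryos and 1 higher. Of all genes 24.5% were called. Cyp19a1 was at -1.51 (adjusted p = 0.00850), Has2 was at 0 to 2.84 CPM in the 4 early libraries and at 0 in the 4 late G&N and G&N-L libraries of this fit, and Tnfaip6 was at 0 in the early and at 2.85 to 8.87 CPM in the late ones. Of 3 sperm markers tested, Prm2 was called lower (-1.81, adjusted p = 0.00576). None of the 3 oviduct markers tested was called by edgeR. Ovgp1, with the smallest p, was at 0 in the early and at 0 to 2.34 CPM in the late libraries of this fit.

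**Figure D4:**
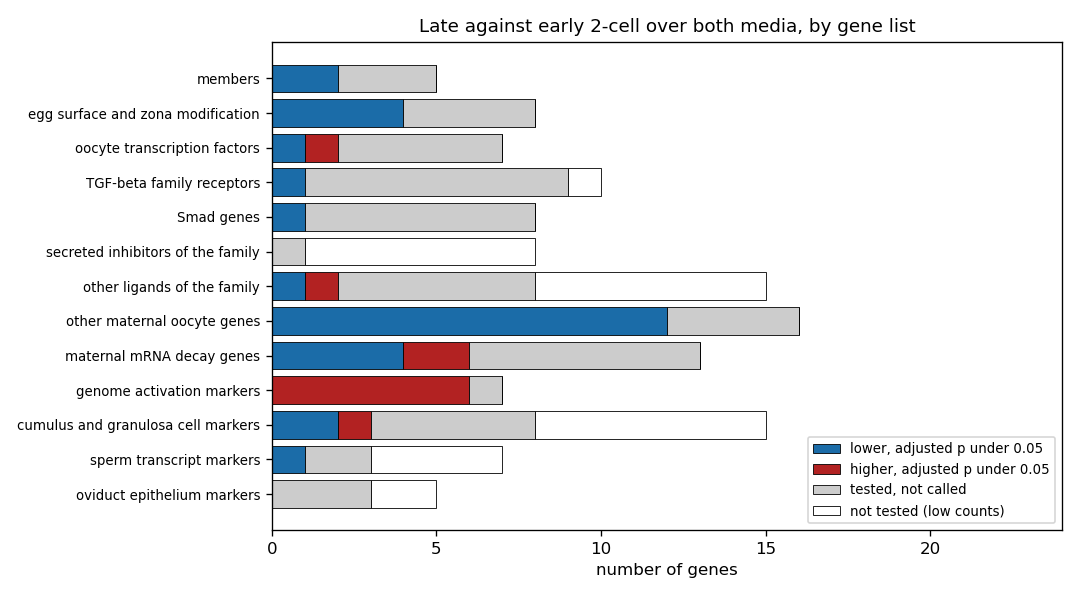
Number of genes (x axis) of each list (rows) that were lower or higher in late than in early 2-cell embryos over both media at an adjusted p under 0.05, tested without a call, or not tested for low counts. Of the other maternal oocyte genes 12 of 16 were called lower, and of the 5 members 2 were. Over all genes tested 24.5% were called in either direction.

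In the comparison of late embryos without and with lactate, edgeR called no gene of any list, as it called none of all 19481. The smallest p of the egg surface list was that of Fetub (1.58, adjusted p = 0.334), and those of the transcription factors, receptors and Smads were of Taf4b (-1.14, adjusted p = 0.324), Acvr2a (-2.24, adjusted p = 0.353) and Smad7 (-1.57, adjusted p = 0.352). Among ligands and inhibitors they were of Tgfb2 (0.49, adjusted p = 0.340) and Fstl3 (0.81, adjusted p = 0.964). Btg4, which is in both the maternal and the decay list, was at 0.58 (adjusted p = 0.321), and the genome activation marker Dppa5a was at -1.60 (adjusted p = 0.311). Among markers of other cells they were of Odf1 (0.89, adjusted p = 0.863), Ovgp1 (-0.92, adjusted p = 0.972) and Fshr, at 0 to 7.53 CPM in late libraries. The median was 0.37 for the members, 0.25 for the other maternal genes and -0.02 for all genes.

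Likeness to the members was measured as Pearson's r over the 14 libraries between the log2 CPM of a gene and the mean of the members' standardized log2 CPM. The 8 genes of the highest r among 25041 were Tubb6 (0.91), Ada (0.91), Cdpf1 (0.90), Phyhipl (0.88), Gm38070 (0.88), Panx2 (0.88), Rnf220 (0.87) and Icosl (0.87). By Spearman's rho another 7 genes took their place, and Panx2 was the 1 gene among the 8 by both measures. The libraries share stage and scaling, so these values are descriptions. Against the mean pattern of the other four members, r was 0.68 for Gdf9, 0.66 for Zp2, 0.63 for Bmp15, 0.49 for Zp1 and -0.63 for Zp3.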

How the data were processed

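RNA-seq was performed on 14 libraries of mouse 2-cell embryos. The deposited values are raw counts per gene, which the authors made, per the labels' processing notes and the paper's methods, with FastQC, Trim Galore, HISAT2 on mm39 and featureCounts. Versions, annotation release and strand setting are not given in the sources used here. Every comparison used a fit of its libraries alone in R 4.3.3 with edgeR 4.0.16 (filterByExpr, TMM, quasi-likelihood test, two-sided, Benjamini-Hochberg adjustment over all genes tested, threshold 0.05), and with DESeq2 1.42.0 as an alternative, along with other scalings and filters, 1 fit over all libraries, a replicate block and each library left out. SE and 95% intervals came from the quasi-likelihood F and its degrees of freedom. CPM use TMM sizes over the 14 libraries, and levels per kb the exon length in GENCODE M39. A count of 0 allows up to 3 counts, 0.0490 to 0.147 CPM, counting error only. An exact test of 2 against 2 libraries cannot go below p = 0.333.

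Named genes were the 5 members, for each list up to 4 called genes of the smallest p (or else the gene of the smallest p) over both media and at late lactate removal, the 8 genes most alike, and genes on which a result turns. Members and lists were chosen with earlier results of these data known. Replicates differed by more than sampling noise in every condition. The scripts were tested on simulated data.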

Additional observations from a re-analysis of the deposited data

How the results depend on the processing

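Of the log2 values of single members under the alternatives, 627 kept their direction and side of the threshold. Another 29 lost a call, 16 gained one and 53 changed sign. These values include the spans between the 5 late conditions, which have no sign and so could not change direction. Of the counts of called members, 123 stayed within 1.5 times and 23 did not. The cause was not tested where none is named. With library totals the count of called members went from 2 to 0 between the stages with lactate and from 2 to 0 over both media. With DESeq2 it went from 0 to 1 at late lactate removal (Gdf9), from 0 to 1 for Lac-CoA against G&N-L (Bmp15), and from 1 to 4 for WT against late G&N. That last count was also 4 without a filter and 4 with at least 10 counts in every library. In 1 fit of all 14 libraries it was 1 between the stages with lactate (Gdf9) and 1 over both media (Gdf9), and with DESeq2's size factors 1 over both media (Bmp15). With each library left out, the count ran from 0 to 2 between the stages with lactate, 1 to 2 over both media, 0 to 1 for WT against late G&N, and 2 to 3 for WT against early G&N.

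The replicate block left 1 call over both media in place of 2 (Gdf9, adjusted p = 0.0602) and 3 in place of 4 for WT against early G&N (Zp3, adjusted p = 0.0924), with 3438 in place of 7571 genes called in all. Between the stages without lactate it called 1391 genes in place of 2203. Same-numbered replicates deviated from their group means with correlations of -0.0402 to 0.00709 over all genes passing the filter. Whether they shared a culture or batch was not tested. The block changed no other call of a member.

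Signs changed for values that were not called. With library totals these were Gdf9 at 0.10 between the stages without lactate, Zp2 at -0.015 at early lactate removal, Zp3 at 0.10 for Lac-CoA against G&N-L, Zp2 at 0.013 for Lac-CoA against G&N, and Zp1 at 0.30 and Zp2 at 0.13 over both media. In the fit of all 14 libraries they were Zp2 at -0.13 at early lactate removal, Zp3 at 0.041 for Lac-CoA against G&N-L, and Zp1 at 0.0072 over both media. With the replicate block they were Zp2 at -0.048 at early lactate removal and Zp1 at 0.043 for Lac-CoA against G&N-L. With at least 10 counts Zp3 was at 0.00022 for Lac-CoA against G&N-L and Zp1 at 0.16 over both media, where Zp1 was at 0.10 with DESeq2 and 0.10 with its size factors.

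Leaving out single libraries gave these ranges. With lactate the stage difference of Zp1 ran from -1.19 to 0.59 and of Zp3 from -0.11 to 0.85. Without lactate Zp1 ran from -0.93 to 1.19, Zp2 from -0.45 to 0.50, Zp3 from -0.00098 to 0.28 and Gdf9 from -0.56 to 0.035. Over both media Zp1 ran from -0.73 to 0.49 and Zp3 from -0.0023 to 0.37, and the interaction from -0.50 to 1.64 for Zp1, -0.059 to 0.99 for Zp2 and -0.68 to 0.28 for Zp3. Late lactate removal gave -1.07 to 1.06 for Zp1 and -0.072 to 0.80 for Zp2, and early removal -1.13 to 0.46 for Zp1, -0.52 to 0.41 for Zp2, -0.60 to 0.27 for Zp3 and -0.67 to 0.068 for Gdf9. Lac-CoA against G&N-L gave -1.05 to 1.30 for Zp1 and -0.18 to 0.16 for Zp3, and against G&N -0.59 to 0.92 for Zp1, -0.66 to 0.39 for Zp2 and -0.20 to 0.40 for Gdf9. H3K18R against WT gave -0.28 to 0.50 for Zp1 and -0.51 to 1.39 for Zp2. For Zp1, WT against late G&N gave -0.63 to 0.52 and against early G&N -1.31 to 0.49.

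Over all genes DESeq2 called 5959 in place of 2654 with lactate, 5218 in place of 2203 without it, 4104 in place of 877 for WT against late G&N, and 4793 in place of 1844 among late conditions. Without a filter the counts were 5060 with lactate, 3668 for WT against late G&N and 4478 among late conditions, and with at least 10 counts 2971 and 3174 for the latter pair. Where edgeR called 0, the filters gave 317 and 114 at late and 42 at early lactate removal, 3 and 2 for Lac-CoA against G&N-L, 22 and 20 against G&N, and 361 for the interaction, where the fit of all libraries called 11, 4 and 1 at late removal, early removal and the interaction. H3K18R against WT, with 1 call, gave 118 with DESeq2, 78 without a filter and 9 in the fit of all libraries. Of the WT against late G&N calls 58.0% were lower in WT, and 72.4% in the fit of all libraries.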

Other observations

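Among other ligands of the family, 6 of the 7 tested were below 0 and 2 were called lower in WT than in late G&N embryos. Tgfb2 was at -1.78 (adjusted p = 0.0413, edgeR) and Bmp5 at -1.60 (adjusted p = 0.0413), where 4.62% of all genes were called. Both are abundant in early embryos, Tgfb2 at 933 to 1717 CPM and Bmp5 at 531 to 723 CPM. Of the 8 egg surface genes 2 were called lower, Oosp1 (-1.32, adjusted p = 0.0413) and Izumo1r (-2.66, adjusted p = 0.0455), of the 7 Smad genes tested Smad4 (-2.01, adjusted p = 0.0494), and of the 6 oocyte transcription factors tested Nobox (-2.59, adjusted p = 0.0448). None was called higher in these lists. Of the 16 other maternal genes 13 were below 0 and 2 were called, Btg4 (-2.65, adjusted p = 0.0413) and Nlrp14 (-1.66, adjusted p = 0.0413), at a median of -1.30 beside -1.28 for the members and -0.16 for all genes. Of the 13 decay genes 8 were below 0 and 3 were called, Btg4, Cnot7 (-1.70, adjusted p = 0.0413) and Pan2 (-2.56, adjusted p = 0.0429), and the genome activation marker Dppa5a was called higher (1.92, adjusted p = 0.0413). These genes were chosen after their values were seen.

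The H3K18R libraries differed from each other in Zp3 per 100 Bmp15 counts, at 30.4 in replicate 1 and 9.77 in replicate 2, and both lay above the highest value of the other treated or early libraries, 4.13. The WT libraries were at 25.7 and 50.4.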
